A study of Mus musculus with 159 samples.

Results

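The cytosolic ribosomal protein genes were described across 159 mammary tumors of mice. A gene belonged to the set where its symbol was Rpl or Rps with a number and an optional letter, or Rplp0 to Rplp2 or Rpsa, with pseudogene and Rps6k symbols left out. This gave 52 of the 18954 named genes of the array, 32 of the large ribosomal subunit and 20 of the small subunit, each with 1 probe set. The rule used no measured values, but it was set with earlier results of these data known. The tumors arose without treatment in female progeny of Diversity Outbred (DO) mice of generation 7 and the PyMT transgenic line, which carries the polyoma virus middle T antigen behind the mouse mammary tumor virus promoter on an FVB/NJ background. They were collected at about 100 days of age, and each animal gave 1 whole tumor. All samples fell into a single group, so no control tissue, second genotype or second treatment stood beside them, and every comparison below was made across tumors.

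A ribosome is built from a small subunit, which reads the mRNA, and a large subunit, which joins amino acids, and each subunit consists of ribosomal RNA and a fixed set of proteins present mostly in a single copy. Cells assemble these proteins with ribosomal RNA, largely in the nucleolus, and dividing cells need many new ribosomes. The mRNAs of these proteins usually begin with a run of pyrimidines, the terminal oligopyrimidine tract, through which the mTOR pathway sets their translation. Several members have a paralog that is used in particular tissues, such as Rpl3l in striated muscle and Rpl10l and Rpl39l in the testis.

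The array did not give the whole ribosome. Of the 81 protein-coding mouse symbols in RefSeq that meet the rule, 51 had a probe set of their own, and the remaining member, Rps4l, is listed as a transcribed pseudogene. Another 30 symbols, among them Rpl3, Rpl11, Rpl39, Rps27 and Rplp0, had none, and 22 of these occurred on probe sets that carry several symbols and were not used. Near-identical processed copies of these genes are common in mammalian genomes, and the probe sequences were not used here. The values of a member may therefore hold signal from a copy of it.

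Windows of 30 bases around the annotated transcript start, with 20 bases before it and 10 bases from it on, are shown for the members that followed the other members most closely (Rps7, Rps25, Rpl6) and least closely (Rpl3l, Rpl12, Rps19), so that the letters at their starts can be set beside the pyrimidine tract these mRNAs are known for. The sequences were taken from RefSeq on GRCm38.p6, run 5′ to 3′ on the strand of the gene, and show the longest unbroken run of C and T in capitals, or the first one where runs of that length are tied, as in Rps7, Rpl3l and Rps19. The run may lie on either side of the start, and in 5 of the 6 windows it ends before the first base of the transcript.
Rps7, chr12:28635944-28635973, minus strand: gaagagCTTCCggtttccacccacctactt
Rps25, chr9:44407694-44407723, plus strand: TCCTTTTTTTCCgacatcttagcgaggctg
Rpl6, chr5:121204481-121204510, plus strand: gatcttggtcaCCTCCCgtcattgcttata
Rpl3l, chr17:24727806-24727835, plus strand: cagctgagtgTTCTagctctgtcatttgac
Rpl12, chr2:32961692-32961721, plus strand: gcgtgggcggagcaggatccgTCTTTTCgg
Rps19, chr7:24884572-24884601, plus strand: agcaCTCCgaaatctcgcgagactcgacgc

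Of the 42 members with such a window, 24 (57.1%) had a run of at least 6 pyrimidines on the strand of the gene, against 30.3% of the windows of 27025 genes. For 33 of the 42 the transcript start of the window was also the outer end of the annotated gene, and 17 of these (51.5%) had such a run, against 30.7% of 19586 genes of this kind. The other strand was not searched. A run of that length that covered the first base of the transcript was present in 12 of the 42 members (28.6%) and in 7.10% of the 27025 genes. The longest run was 12 bases in Rps25 and 4 bases in Rpl3l and Rps19. The runs did not sort the 6 windows by how closely the members followed each other, since Rps7 had a run of 5 bases and Rpl12 a run of 7. The window of Rpl39l, the member that followed the others least, is not shown because its transcript start lies 31 bases inside the gene. A run is a match of letters and not a measured transcript start.

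**Figure D1:**
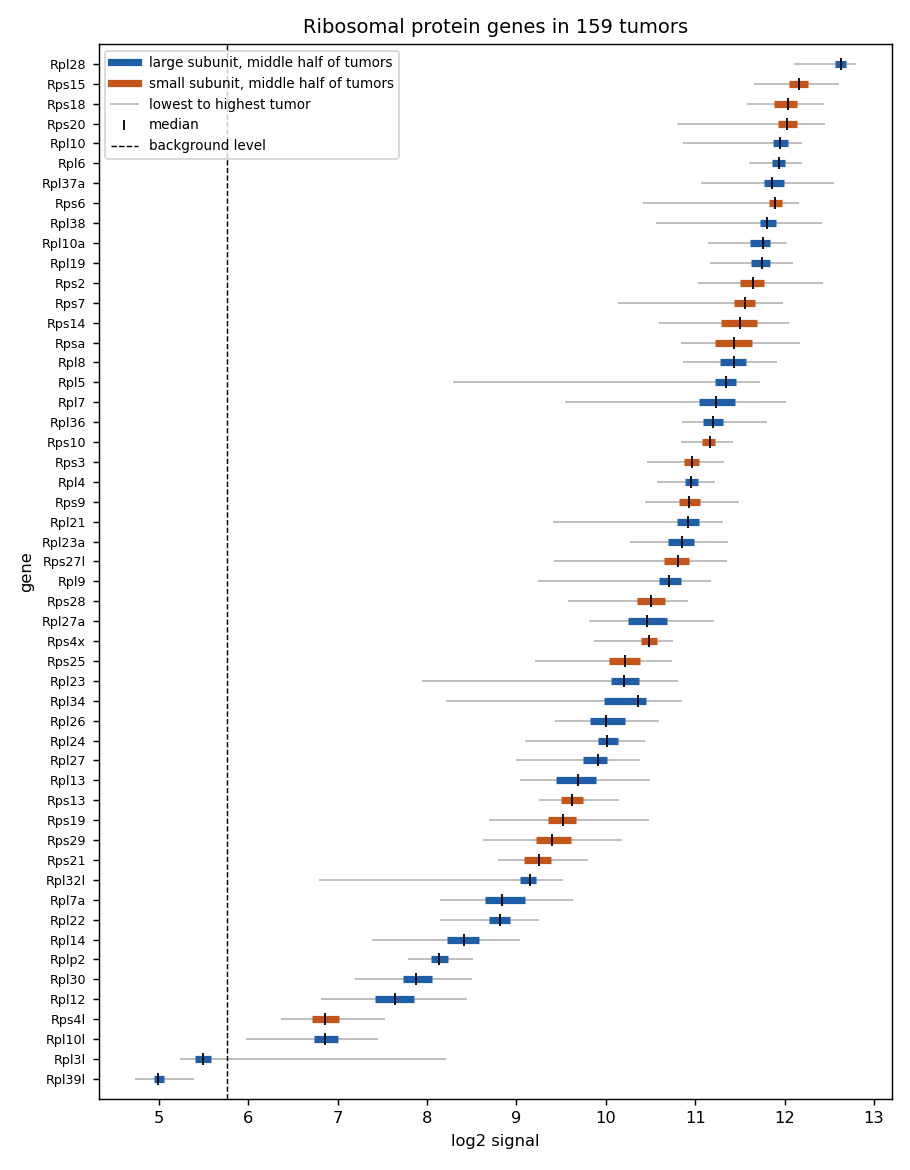
Log2 signal of the 52 members in 159 tumors (horizontal axis), ordered by mean. Thick bars span the interquartile range, thin lines the lowest to the highest tumor, ticks mark medians and the dashed line is the background level of 5.77. Rpl39l and Rpl3l lie below the background level by their means, and thin lines of Rpl5, Rpl23, Rpl34 and Rpl32l reach far to the left of their bars.

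The members gave strong signals. Their median mean was 10.72 on the log2 scale, where the median of all named genes was 7.12. Background was taken as 5.77, the 95th percentile of the means of 1220 olfactory, vomeronasal and taste receptor genes, and 50 of the 52 members had means above it. Probe sets differ in how well they bind, so these levels do not rank the mRNAs. The members with the highest signals were Rpl28 (12.61 ± 0.11, SD, n = 159), Rps15 (12.16 ± 0.17), Rps18 (12.02 ± 0.17), Rps20 (12.01 ± 0.21) and Rpl10 (11.94 ± 0.18). Rpl10 is among the last proteins to join the large subunit. Its autosomal paralog Rpl10l (6.86 ± 0.23), Rps4l (6.88 ± 0.23) and Rpl12 (7.63 ± 0.32), a protein at the base of the stalk that recruits translation factors, had the lowest signals above background. The members below it on average were the paralogs Rpl39l (5.01 ± 0.11) and Rpl3l (5.61 ± 0.41). Rpl39l stayed below background in every tumor, with a highest value of 5.39, while Rpl3l exceeded it in 27 of 159 tumors.

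The spread across tumors was compared with the median variance of all probe sets, and a gene passed where its variance exceeded that median at p under 0.05 in a one-sided chi-square test. By this measure 20 of the 52 members (38.5%) varied, against 43.8% of all 18954 named genes. The counts were 14 of 32 for the large subunit and 6 of 20 for the small subunit. The same 20 members passed at an adjusted p under 0.05, where 42.5% of all genes passed. Without the 6 arrays that correlated least with the others, 23 members varied, against 43.2% of all genes. Set against probe sets of similar mean signal, 17 members (32.7%) varied, where 41.6% of all genes did.

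Rpl5, which carries the 5S ribosomal RNA into the large subunit together with Rpl11, had the largest variance of the members over all arrays. Its lowest, median and highest values were 8.29, 11.34 and 11.73, and its variance was 4.22 times the median (adjusted p = 1.1e-62, chi-square test over all genes). Most tumors lay close together, and 4 tumors lay more than 1 log2 unit below the median. Of these, 2 were among the 6 low-correlation arrays, which had a median correlation with the other arrays of 0.895 to 0.940, where the other arrays were at 0.944 or above. Without them the ratio of Rpl5 was 2.96, it still passed, and Rpl3l (3.97) and Rpl34 (3.37) exceeded it.

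Rpl34, a large subunit protein, followed at 8.21, 10.36 and 10.85, with a ratio of 3.74. Rpl3l was next with 5.23, 5.49 and 8.21 and a ratio of 3.50, and Rpl7, another large subunit protein, reached 3.19 with values of 9.55, 11.23 and 12.01. Rpl34 and Rpl7 reached farther below their medians than above them, and Rpl3l reached farther above. For Rpl7 only 3 tumors lay more than 1 log2 unit below the median, and 1 of these was not a low-correlation array. Set against probe sets of similar mean, Rpl3l had the largest ratio of the members at 6.62, Rpl5 was at 3.62 and Rpl12 at 1.295. The other members among the 8 most variable, by the ratio to all probe sets, were Rpl12 (ratio 2.08), Rpl23 (2.07), Rps27l (1.92) and Rpsa (1.86). Rpl23 lies on the face of the large subunit that meets the small subunit, Rps27l is a p53-induced paralog of Rps27, and Rpsa was first described as a laminin receptor. Rpl23 had a single tumor at 7.95 that was not a low-correlation array, against a median of 10.21.

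The steadiest members were Rpl28 (ratio 0.25), Rpl39l (0.25), Rpl6 (0.25), Rps10 (0.28) and Rpl4 (0.29). Rpl28, Rpl6, Rps10 and Rpl4 are core subunit proteins with strong signals, and their SDs lay between 0.11 and 0.12. Rpl4, which lines the peptide tunnel, ran from 10.57 to 11.22 over all 159 tumors. The small spread of Rpl39l was that of a probe set below background.

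**Figure D2:**
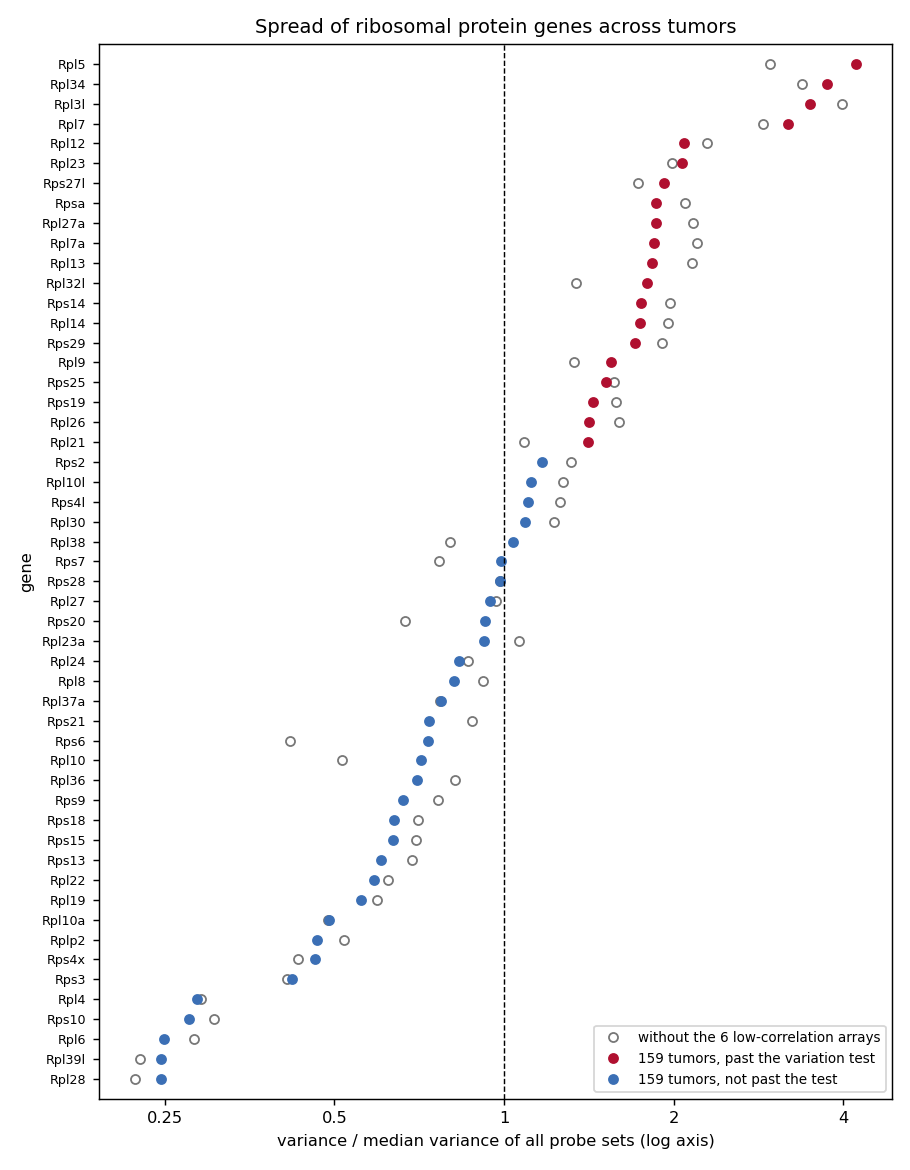
Variance of each member as a multiple of the array-wide median, on a log axis, with 159 tumors (filled, red where the one-sided variation test was passed) and without the 6 low-correlation arrays (open). Rpl5, Rpl34, Rpl3l and Rpl7 stand between 3.19 and 4.22, and leaving out the 6 arrays moves Rpl5 to 2.96 and Rpl3l to 3.97.

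Because the DO parents carry the genomes of 8 founder strains, a gene can fall into separate levels among the tumors. A mixture of 2 normal distributions was fitted to each gene, and 2 levels were called under fixed limits on the gain in fit, the separation of the levels (Ashman's D over 2.5) and the share of the smaller level (at least 10%). No member had 2 levels over all 159 tumors, against 0.28% of all genes (53). Over the tumors without the low-correlation arrays, 1 member was called, where 0.29% of all genes were. This member was Rpl34. Its lower level was at 9.68 with 27.1% of tumors and its higher level at 10.41 (D = 3.72). With all arrays in the fit D was 1.61, and the other alternatives for this result gave no call in any member.

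In these tumors, 42 were closer to the lower level of Rpl34 and the rest to the higher. Tumors at the lower level occurred in each of the 6 blocks formed by the leading digits of the animal number, from 4 of 26 tumors to 3 of 5. The labels do not say what these blocks are. Rpl34 lies at chr3:130726827-130730398 on GRCm38.p6. After these values had been seen, each member was compared with the genes within 1 Mb of it. Without the low-correlation arrays, the gene of 18953 with the highest correlation with Rpl34 was Pla2g12a (r = 0.42), a secreted phospholipase 831 kb away, and Ostc (r = 0.37), an oligosaccharyltransferase subunit gene 17.4 kb away, ranked 7th. With all 159 arrays the first rank was lost: Pla2g12a was at 0.33 and rank 1951, Ostc at 0.52 and rank 17, and Pa2g4 was closest (0.58). Within the 5 larger blocks Pla2g12a correlated with Rpl34 at 0.17 to 0.67 and Ostc at 0.25 to 0.58. Tumor genotypes and probe sequences were not used here.

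**Figure D3:**
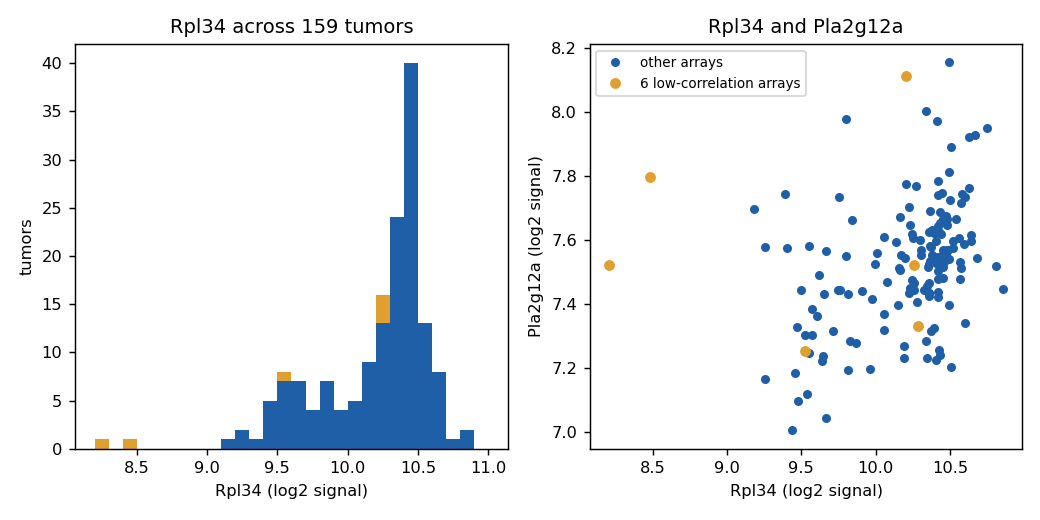
Left, number of tumors at each log2 signal of Rpl34, with the 6 low-correlation arrays in yellow and the others in blue. Right, log2 signal of Pla2g12a against that of Rpl34, 1 point per tumor: the blue points form a dense group near 10.41 and a looser group near 9.68, and the 2 lowest Rpl34 values belong to low-correlation arrays.

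Without the low-correlation arrays, a gene within 1 Mb ranked among the 10 most correlated genes for 6 of the 52 members (11.5%), against 12.5% of 18929 named genes, so the members did not stand above the background in this. With all arrays the count was again 6, with Rpl8 in place of Rpl34. Without the low-correlation arrays the first of all genes for Rpl38, which lies on chromosome 11, was Atp5h, an ATP synthase subunit gene 743 kb away (r = 0.75). Rps10 had another member, Rpl10a, 693 kb away on chromosome 17, as its closest gene (r = 0.64). For Rpl36 the highest of its neighbors was Ubxn6, which ranked 2nd (r = 0.58), for Rps25 it was Atp5l at rank 8 (r = 0.72), and for Rpl26 it was Stx8 at rank 8 (r = 0.49). Atp5l, like Atp5h, encodes a subunit of ATP synthase.

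Most members rose and fell together across tumors. Of the 1326 pairs of members, 84.2% had a positive correlation, with a median Pearson r of 0.30 and a range of -0.39 to 0.88. Pairs of other genes were not computed, so no background share stands beside this. Pairs within the small subunit had a median of 0.40, pairs within the large subunit 0.26, and pairs with one member of each 0.30. Each member was also set against the mean of the other members, after each gene had been standardized across tumors. The median of these correlations was 0.58, and 33 of the 52 members exceeded 0.5, where 305 of 18902 other genes (1.61%) did so against the mean of all members. Among the other genes above background the share was 2.15%. These correlations share the arrays and their scaling, and no test was made of them.

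**Figure D4:**
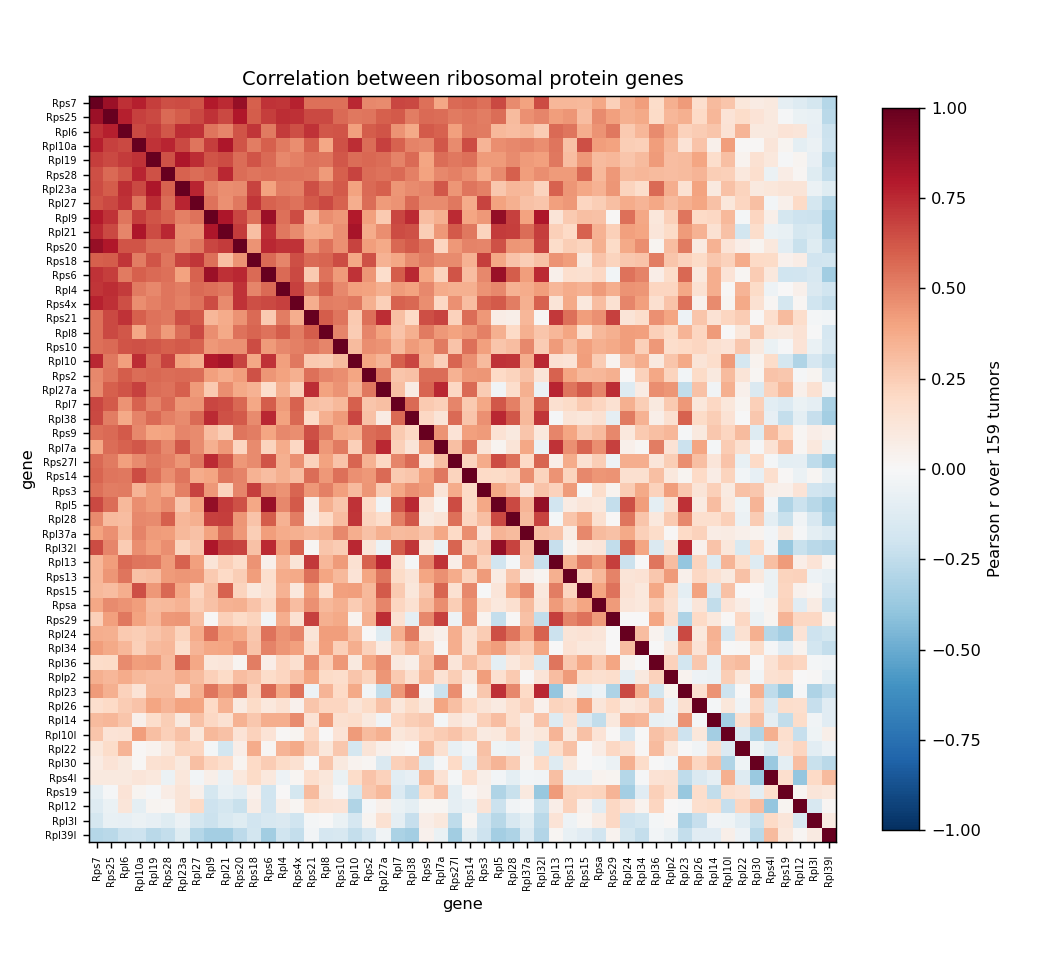
Pearson r between all pairs of the 52 members over 159 tumors, with genes ordered on both axes by their correlation with the other members, from Rps7 (0.85) to Rpl39l (-0.28). Red is positive and blue negative: most of the matrix is red, and the last rows and columns (Rps4l, Rps19, Rpl12, Rpl3l, Rpl39l) are pale or blue.

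Rps7 (r = 0.85 with the other members), Rps25 (0.85) and Rpl6 (0.83) followed the others most closely. Rps7 and Rps25 are small subunit proteins, and Rps25 is needed for translation from some viral entry sites. At the other end stood Rpl39l (-0.28), Rpl3l (-0.15), Rpl12 (0.00), Rps19 (0.05) and Rps4l (0.07). Rpl39l and Rpl3l were near background, whereas Rps19, the gene most often altered in Diamond-Blackfan anemia in humans, had a mean of 9.49 ± 0.26 and ran from 8.70 to 10.48. Rpl12 ran from 6.81 to 8.45 and its closest gene was Snapc4 (r = 0.60), a subunit of the complex that starts small nuclear RNA transcription.

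The highest pair correlations were those of Rpl5 with Rpl9 (0.88), Rpl5 with Rpl32l (0.87), Rps7 with Rps20 (0.87) and Rpl5 with Rps6 (0.86), the substrate of S6 kinase. The lowest was that of Rpl12 with Rps4l (-0.39). Rpl5 was closer still to genes outside the set, namely Hnrnpk (0.95), an RNA-binding protein gene, Uqcrb (0.94) of respiratory complex III, and Tpt1 (0.91), the translationally controlled tumor protein gene. Without the low-correlation arrays these were 0.92, 0.91 and 0.87. Among the arrays kept, 2 tumors still lay more than 1 log2 unit below the median of Rpl5. Rpl7 was closest to 1700073E17Rik (0.85), a transcribed pseudogene on chromosome 6, while Rpl7 itself lies on chromosome 1.

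The mean of the large subunit members and that of the small subunit members correlated at 0.89. In log2 units the shift of the median member in a tumor ran from -0.43 to 0.24, and it exceeded 0.1 in either direction in 56 tumors and 0.2 in 8. The tumors with the 2 lowest standardized means (-2.32 and -1.81) were low-correlation arrays, and 5 of these 6 arrays lay below the median of all tumors. The standardized mean of the members had medians of 0.38 and 0.29 in 2 of the blocks of animal numbers and medians between -0.19 and -0.10 in the other blocks. Of its variance, 26.1% lay between blocks. Within the 5 larger blocks, the median correlation of a member with the others ran from 0.41 to 0.63.

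The members' mean also moved with the background. Its correlation with the mean of the 1220 receptor genes, which should be silent in these tumors, was -0.54 (Spearman's rho -0.37) over all arrays and -0.41 without the low-correlation arrays. The median correlation of a member with the others was 0.51 with the receptor mean regressed out. The part of array quality in these correlations was not tested further.

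Outside the set, the gene closest to the mean of the members was Naca (r = 0.81), which encodes a subunit of the complex that shields nascent peptides at the ribosome. Snord47 (0.80), a small nucleolar RNA encoded within Gas5, came next, and then Atp5md (0.78), Ndufv2 (0.74), Atp5c1 (0.73), Mrpl15 (0.73), Tomm7 (0.72), Gstp1 (0.72), Atp5l (0.72) and Anapc5 (0.72). Of these 10 genes, 6 encode mitochondrial proteins: 3 subunits of ATP synthase, 1 of respiratory complex I, 1 of the mitochondrial ribosome and 1 of the outer membrane import channel. Mitochondrial genes were not counted among all named genes, so no background share stands beside this. With the receptor mean regressed out, the 10 genes had correlations of 0.58 to 0.74.

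The 10 genes at the other end were Mir328 (-0.63), Mirlet7a-1 (-0.62), Mir199b (-0.62), AY512931 (-0.61), Olfr270 (-0.60), Ankrd61 (-0.59), Defb11 (-0.59), Olfr1029 (-0.59), Olfr961 (-0.59) and Syna (-0.59). Of these, 3 are olfactory receptor genes and 3 are microRNA genes, and the mean signals of 8 of the 10 lay below the background level. The exceptions were Mir328 at 7.99 and Syna, an endogenous retroviral envelope gene that makes placental cells fuse, at 5.83. With the receptor mean regressed out, the correlations of the 10 genes lay between -0.45 and -0.38.

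Gene lists of the wider machinery were set beside the members. For reference, the mean of all 14260 genes above background correlated with the mean of the members at 0.44, and their median single correlation was 0.05. Without the low-correlation arrays this reference fell to 0.23. The mean of the list of 31 translation factors, which holds Naca, correlated with the mean of the members at 0.81, and at 0.80 without Naca. The median single correlation of the 31 was 0.56, and without the low-correlation arrays the correlation of the means was 0.77. The most variable of them were Eif2s2, Eif3e, Eif5 and Eif4e, with correlations of 0.45, 0.51, 0.35 and 0.33. For 76 mitochondrial ribosomal proteins the correlation of the means was 0.53 (0.50 without the low-correlation arrays) and the median single correlation 0.26. The most variable were Mrpl42 (0.38), Mrpl1 (0.12), Mrps18c (0.40) and Mrpl45 (0.23).

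For 47 nucleolar genes of ribosome assembly the means correlated at 0.46 over all arrays and at 0.37 without the low-correlation arrays, where all genes above background gave 0.44 and 0.23. Their median single correlation was 0.33. Among their most variable genes, Npm1, which encodes the nucleolar chaperone nucleophosmin, followed the members most closely (0.61), and Brix1 (0.43), Rrs1 (0.43) and Utp18 (0.18) did so less. For 12 genes of RNA polymerase I, which transcribes ribosomal RNA, the correlation of the means was 0.33 over all arrays and 0.27 without the low-correlation arrays, and the median single correlation was 0.17. The most variable of these were Taf1b (0.08), Taf1a (-0.14), Twistnb (0.10) and Polr1e (0.15). For 10 p53 target genes, which respond when ribosome assembly fails, it was 0.14, with single values of 0.12 for Plk2, -0.07 for Trp53inp1, 0.09 for Phlda3 and 0.08 for Zmat3. Rps3a1, a small subunit gene outside the symbol rule, was at 0.29.

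Each gene was then fitted on 4 scores of the tumors, and the slope is given in log2 units per SD of the score. The scores were the mean standardized values of 20 proliferation genes, 15 adipocyte genes, 12 milk secretion genes and 15 fibroblast matrix genes, and none held a member. Whole tumors were measured, so fewer cells of a type and less RNA per cell cannot be told apart. Luminal epithelium markers were well above background, with a median of 10.71 for 10 genes.

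With the proliferation score 31 of the 52 members rose (59.6%) and 4 fell (7.69%) in limma with an adjusted p under 0.05, against 28.5% of all genes rising and 33.4% falling. Among genes above background 37.2% rose and 23% fell. The members had a median slope of 0.043, and 46 of the 52 slopes were positive. The median slope of all genes was -0.0094, and that of genes above background was 0.017. The largest slopes were those of Rpl5 (0.12 ± 0.03, SE, adjusted p = 0.0023), Rpl34 (0.11 ± 0.03, adjusted p = 0.0014), Rpl23 (0.11 ± 0.02, adjusted p = 6.9e-05) and Rps27l (0.094 ± 0.023, adjusted p = 2.5e-04). Rpl5, Rpl34, Rpl23 and Rps27l are also among the most variable members.

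The 4 members that fell were Rps4l (-0.074 ± 0.017, adjusted p = 1.2e-04), Rpl3l (-0.071 ± 0.032, adjusted p = 0.046), Rpl10l (-0.042 ± 0.018, adjusted p = 0.039) and Rpl39l (-0.027 ± 0.009, adjusted p = 0.0038). These are 3 paralogs of limited tissue use and the transcribed pseudogene, and they are 4 of the 5 members with the lowest signals. The proliferation score had 1 tumor at -6.44, a low-correlation array, where the next was at -1.78. Without this tumor 35 members rose and 1, Rps4l, fell, against 26.6% and 33.8% of all genes.

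The receptor genes fell as proliferation rose, with a correlation of -0.46 between their mean and the score. With their mean as a covariate, 12 of the 52 members rose and 4 fell, against 18.8% and 17.3% of all genes. The median slope of the members was 0.016 in that fit, and 32 of the 52 slopes were positive. The median of all genes was -0.0029. Of the 31 rising members 12 rose again in that fit, and of the 4 falling members 2 fell again (Rpl10l and Rps4l). The other 2 that fell in it were Rpl10 and Rpl21. Under quantile normalization 17 rose and 1 fell, against 19.6% and 15.4% of all genes. Within the 5 larger blocks of animal numbers the count of rising members was 3, 0, 34, 2 and 13 (5.77%, 0%, 65.4%, 3.85% and 25%), against 8.08%, 4.89%, 18.9%, 9.47% and 17.8% of all genes. The share of members was thus below that of all genes in 3 of the 5 blocks. The block with 34 rising members holds the 2 tumors with the lowest standardized means of the members (-2.32 and -1.81), both low-correlation arrays. This block was not fitted without them. With block as a factor over all tumors, 38 members rose and 3 fell, against 26.1% and 29.7% of all genes, and all 31 rising members rose again. Of the 5 median slopes, 4 were positive. Members that rose in the fit over all tumors and in each of its 14 alternatives were Rpl4, Rpl6, Rpl8, Rpl24, Rpl27 and Rps13. The fits within single blocks are not among these 14, and in 1 block none of the 6 rose. Their slopes over all tumors were 0.047, 0.039, 0.064, 0.086, 0.089 and 0.055. Rps4l fell in the same fit and in each of the 14 alternatives.

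The lists of the wider machinery moved with proliferation in the same fit. Among all genes 28.5% rose and 33.4% fell, and among genes above background 37.2% rose and 23% fell. Of the nucleolar assembly genes 46 of 47 rose and none fell, with a median slope of 0.12. Of the mitochondrial ribosomal proteins 67 of 76 rose and 1 fell (median slope 0.078), of the translation factors 25 of 31 rose and 1 fell (0.069), and of the RNA polymerase I genes 10 of 12 rose and none fell (0.077). Brix1 (0.24), Npm1 (0.22), Utp18 (0.22), Mrpl45 (0.21) and Mrpl42 (0.20) had slopes of 0.20 or more, where the largest slope of a member was 0.12. No test of these differences was made, and the lists were not counted with the receptor mean as a covariate or within blocks.

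**Figure D5:**
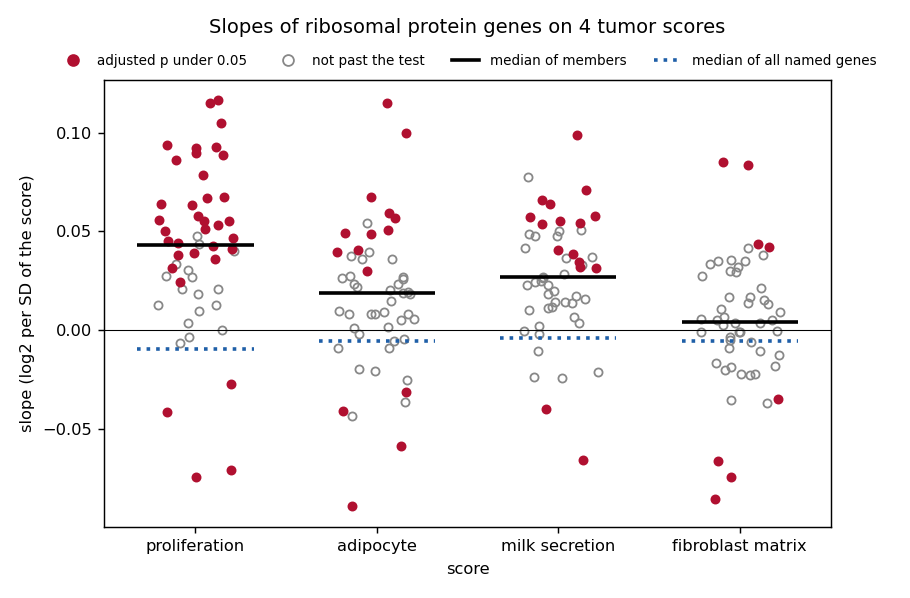
Slope of each member on each of 4 tumor scores, in log2 units per SD of the score, with filled points past an adjusted p under 0.05. Black lines are the medians of the 52 members and dotted blue lines those of all named genes: the members lie highest on the proliferation score, with a median of 0.043 against -0.0094, and 4 members lie apart below 0. Genes above background, not drawn, had a median of 0.017 on that score.

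With the adipocyte score 11 members rose (21.2%) and 4 fell (7.69%), against 17.6% of all genes rising and 16.2% falling. The rising share was thus near that of all genes. The rising members with the largest slopes were Rpl3l (0.11 ± 0.03, adjusted p = 0.0018), Rps14 (0.10 ± 0.02, adjusted p = 6.8e-05), Rps29 (0.068 ± 0.022, adjusted p = 0.010) and Rpl21 (0.059 ± 0.020, adjusted p = 0.014). Rps14 is the gene whose loss gives the anemia of the 5q deletion in humans. The members that fell were Rpl12 (-0.089 ± 0.024, adjusted p = 0.0016), Rpl30 (-0.058 ± 0.018, adjusted p = 0.0051), Rpl27 (-0.041 ± 0.017, adjusted p = 0.045) and Rps3 (-0.031 ± 0.011, adjusted p = 0.020). All 12 skeletal muscle markers, which Rpl3l followed across tumors, also rose with this score (median slope 0.40). Their part in the slope of Rpl3l was not tested. With the other 3 scores in the same fit 5 members rose and none fell, against 11.4% and 6.03% of all genes. Only 2 of the 11 rising members were among the 5 (Rps14 and Rps29), and the others were Rpl4, Rpl8 and Rpsa.

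With the milk secretion score 14 members rose (26.9%) and 2 fell (3.85%), against 15.2% and 14.3% of all genes. Rpl5 (0.099 ± 0.035, adjusted p = 0.023), Rps25 (0.071 ± 0.021, adjusted p = 0.0050), Rpl32l (0.066 ± 0.023, adjusted p = 0.019) and Rpl9 (0.064 ± 0.021, adjusted p = 0.014) rose most. Rpl12 (-0.066 ± 0.025, adjusted p = 0.032) and Rpl36 (-0.040 ± 0.014, adjusted p = 0.024) fell. Of the rising members 11 also rose with proliferation, and with the other 3 scores in the fit 1 member rose and 1 fell, against 7.62% and 11.9% of all genes.

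With the fibroblast matrix score 4 members rose (7.69%) and 4 fell (7.69%), against 15.2% and 11% of all genes. Rpl3l (0.085 ± 0.032, adjusted p = 0.034), Rps14 (0.083 ± 0.022, adjusted p = 0.0018), Rpl37a (0.044 ± 0.015, adjusted p = 0.020) and Rps20 (0.042 ± 0.016, adjusted p = 0.043) rose. Rpl12 (-0.085 ± 0.024, adjusted p = 0.0038), Rps27l (-0.074 ± 0.023, adjusted p = 0.010), Rpl30 (-0.066 ± 0.017, adjusted p = 0.0017) and Rps13 (-0.035 ± 0.013, adjusted p = 0.038) fell. The 12 skeletal muscle markers rose with this score too (median slope 0.34). With the other 3 scores in the same fit no member rose, and Rps13 and Rps27l fell, against 11.3% and 7.24% of all genes. Over the 4 scores, 8 members passed on none and 8 passed with opposite signs on different scores. Rpl12 rose with proliferation (0.079 ± 0.024, adjusted p = 0.0035) and fell with the other 3 scores fitted singly, but with all 4 scores in the fit its rise passed (adjusted p = 0.0034) and none of its 3 falls did (adjusted p = 0.59, 0.099 and 0.19).

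Rpl3l replaces Rpl3 in the ribosomes of striated muscle. Over the 159 tumors its lowest, median and highest values were 5.23, 5.49 and 8.21, and the next 2 highest were 7.98 and 6.92. Most tumors were thus below background, and a few stood far above it. The genes closest to it were Mypn (r = 0.93), a sarcomere protein gene, Rbfox1 (0.93), a splicing factor gene of muscle and brain, and Asb11 (0.92).

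All 12 skeletal muscle markers correlated with Rpl3l at 0.65 to 0.88 (Spearman's rho 0.47 to 0.69). Mylpf, a fast muscle myosin light chain, ran from 5.15 to 9.81 with a median of 5.43, and Ckm, the muscle creatine kinase, from 6.63 to 12.76. In the 10 tumors with the highest Rpl3l, at 6.39 or above, 8 to 10 had each marker above its own median. Of these 10 tumors, 2 were low-correlation arrays with Mylpf at 5.75 and 6.09, and the other 8 had Mylpf between 7.95 and 9.81. The mean of the muscle markers correlated with the mean of all members at 0.04.

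The paralogs that could be compared formed 3 pairs, tested with 100000 permutations and adjusted over the 3 pairs. Rpl10l and Rpl10 rose together (r = 0.43, adjusted p = 1.5e-05, rho 0.58), and did so within each of the 5 larger blocks (0.27 to 0.60) and without the 2 farthest tumors (0.43). Rpl10l ran from 5.97 to 7.45 with a median of 6.86, and Rpl10 from 10.86 to 12.19 with a median of 11.95. Rpl10 lies on the X chromosome and Rpl10l on chromosome 12, and their coding sequences are similar. The unadjusted p of this r, 1e-05, is the smallest that 100000 permutations can give.

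Rpl7 and Rpl7l1, a paralog found in assembling large subunits of human cells, had r = 0.44 (adjusted p = 1.5e-05) and rho 0.28 (adjusted p = 6.6e-04). Without the 2 farthest tumors r was 0.29, within blocks it ran from -0.03 to 0.67, and with the receptor mean regressed out it was 0.14 (adjusted p = 0.089). Rpl7l1 ran from 9.23 to 10.44 with a median of 9.93. Rps4x and Rps4l showed no correlation that passed the test (r = 0.02, adjusted p = 0.79, rho 0.09), and within blocks r ran from -0.33 to 0.08. Rps4x ran from 9.86 to 10.75 with a median of 10.49, and Rps4l from 6.37 to 7.53 with a median of 6.86. The relation of this pair depended on the scaling: r was 0.26 under quantile normalization (adjusted p = 0.0012) and 0.27 with the receptor mean regressed out (adjusted p = 0.0011).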

How the data were processed

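RNA of 159 tumors was hybridized to Affymetrix mouse ST arrays. For their own analysis the authors normalized the arrays to the median array in BRB ArrayTools without batch correction. The deposited log2 values used here ran from 3.47 to 13.88, with array medians from 6.81 to 7.18. The paper does not say whether these values had that scaling. Their background correction and probe summarization, not given in the sources used here, bear most on dim probe sets. For arrays, their number limits the precision. The labels name 1 animal per tumor.

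Here every array was moved by a constant, so that its median difference to the median array became 0. Gene names came from the platform annotation of probe sets with 1 symbol and were brought up to date through gene identifiers. Where a gene had several probe sets, that of highest mean was used. The 688 probe sets with several symbols and the 1065 without an entry were not used. The methods name a variation filter at p under 0.05 without its formula, which was chosen here (variance over the median variance against a chi-square distribution). Slopes were fitted with limma 3.58.1 in R 4.3.3 and adjusted by the Benjamini-Hochberg method over all named genes. Levels were called where the BIC fell by over 20, Ashman's D exceeded 2.5, at least 10% of tumors lay in the smaller level and the mean exceeded background. Other steps ran in Python 3.11.15 with scipy 1.17.1 and numpy 2.4.6, tables were handled with pandas 2.3.3, and figures were drawn with matplotlib 3.10.9. Low-correlation arrays were those with a median correlation under the lower quartile by more than 3 interquartile ranges.

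The members and gene lists were chosen with earlier results of these data known. Translation factors without Naca were added after the data had been seen. Genes were named by a rule: the 8 largest and 5 smallest variance ratios, the 5 highest and 5 lowest means, up to 4 slopes per direction and score among those past the test, the 3 highest and 5 lowest correlations with the other members, members with 2 levels, genes of the pairs, up to 4 genes per list of the translation and ribosome assembly machinery by variance ratio, and the 10 outside genes at each end. The 3 closest genes of variable members, the genes within 1 Mb, the members whose slopes held in every alternative and those named beside a covariate fit were named after their values had been seen. Of 10 pairs planned, 3 could be measured. Alternatives changed the scaling, the arrays, the animals, the covariates, the probe set, the score, the genes tested and the thresholds.

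The steps were tested on simulated data. How far these rates hold for the measured genes, which share arrays and their scaling, was not tested. For the variation test, unchanged meant a variance ratio of 1, whereas 43.8% of all named genes passed in the measured data. The permutation test called 7.5% of 40 simulated cases without a correlation. The slope fit on the proliferation score called 31.0% of 100 genes with a slope of 0.25 SD, all of 100 genes at 0.5 SD and 0.021% of 18754 unchanged genes. The variation test called 5.09% of 18754 unchanged genes, and the mixture 66% of 100 genes with levels 0.7 apart and none of 2000 without.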

Additional observations from a re-analysis of the deposited data

How the results depend on the processing

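The count of members past the variation test stayed between 17 and 23 in 11 alternatives, and the median correlation of a member with the others between 0.47 (quantile normalization) and 0.59 in 10. The members past the variation test were not always the same. With a variance based on the median absolute deviation 22 passed, and 15 of the 20 were among them. In the other alternatives 17 to 20 of the 20 passed again. Members with 2 levels numbered 0 in 7 alternatives and 1 without the low-correlation arrays. The counts on the scores moved most, and the cause was not tested. No member that had passed on a score turned to a call of the opposite sign in any of these alternatives. The fits within single blocks were not part of this comparison.

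With proliferation, rising members numbered 17 under quantile normalization, 16 in odd and 18 in even animal numbers and 12 with the receptor mean as a covariate. Falling members numbered 2 with values as deposited, without the low-correlation arrays, in odd numbers and among genes above background, and 1 under quantile normalization, in even numbers, without the 2 farthest tumors and without the tumor past the gap. With the adipocyte score, rising members numbered 4 as deposited, 5 under quantile normalization, 7 with block as a factor, 2 in even numbers, 5 with the other scores and 19 with the array median as a covariate, and falling members 7 under quantile normalization and 0 in odd numbers and with the other scores. With milk secretion, rising members numbered 8 as deposited, 3 under quantile normalization, 1 in even numbers, 1 with the other scores and 4 with the receptor mean, and falling members 0 in odd numbers and 1 with the other scores. With the fibroblast matrix score, rising members numbered 2 as deposited, 7 under quantile normalization, 2 with block as a factor, 2 in odd and 0 in even numbers, 0 with the other scores, 14 with the array median and 9 without the 2 farthest tumors, and falling members 0 in even numbers, 2 with the other scores and 10 with the receptor mean. The pair Rps4x and Rps4l turned negative with block means removed (r = -0.087, adjusted p = 0.28) and in even numbers (-0.080, adjusted p = 0.48), and reached 0.26 under quantile normalization and 0.27 with the receptor mean regressed out, where Rpl7 and Rpl7l1 fell to 0.14.

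No paired analysis was possible because the tumors form 1 group. Odd and even numbers hold 80 and 79 tumors, which limits what those fits can call. Members near background (Rpl3l, Rpl39l) carry little signal, and the members without a probe set of their own were not analysed here.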
